A study of Mus musculus with 48 samples.

Results

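The 10 genes described here mark osteoclast differentiation, and they were picked by symbol from the 49568 genes of the RAW264.7 count table, where each has 1 row. They are Tnfrsf11a, the transcription factor gene Nfatc1, the receptor and adhesion genes Oscar and Itgb3, the fusion genes Dcstamp, Ocstamp and Atp6v0d2, and the secreted or lysosomal enzyme genes Ctsk, Acp5 and Mmp9. RAW264.7 is a mouse macrophage line. Its cells were incubated for 72 h with PBS, with IFN-γ at 5 ng/ml, with 1 of 3 synthetic peptides at 100 µg/ml, or with a peptide and IFN-γ together, and the medium was refreshed once at 48 h. The peptides are 15 residues long and correspond to residues 65 to 79 of the HLA-DRβ chain: 65-79*LE from an allele tied to risk of lupus (SLE), 65-79*SE from an allele tied to risk of rheumatoid arthritis (RA), and 65-79*PE with a motif of alleles tied to protection. The groups are written PBS, LE, SE, PE, IFNy, LE+IFNy, SE+IFNy and PE+IFNy. Each held 3 letter-labelled libraries, which carry the results, and 3 libraries whose labels start with HLA. No label names RANKL, the cytokine used to drive osteoclast formation, so every value is from macrophages that were not given it as far as the labels say.

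An osteoclast is a large multinucleated cell of the macrophage lineage that resorbs bone. RANKL binds its receptor RANK, which is encoded by Tnfrsf11a, and the signal leads through NF-κB and AP-1 to NFATc1, the master transcription factor of the lineage. Co-receptors such as OSCAR add the calcium signal that keeps NFATc1 active. NFATc1 then switches on the genes for fusion (DC-STAMP, OC-STAMP, the d2 subunit of the proton pump) and for resorption (cathepsin K, the acid phosphatase TRAP from Acp5, the gelatinase MMP-9), together with integrin β3, which anchors the cell to bone. IFN-γ is known to oppose osteoclast formation in cultures given RANKL.

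The 24 letter-labelled libraries held 16498562 to 26929356 counts in genes, and the 24 HLA-labelled libraries 14115928 to 42574154. A mean of log2(CPM + 0.1) over 20 targets of IFN-γ, where CPM is a gene's count scaled to a library total of 1000000, served to check the labels. In the letter-labelled libraries it was 5.54 to 6.22 in the 12 labelled with IFNy and 0.93 to 1.08 in the 12 others. Among the HLA-labelled libraries 12 of 24 went against their labels: 6 labelled with IFNy lay below 4 and 6 labelled without it lay above 4. The main comparisons had been limited to the letter-labelled libraries by the choice of this part, with earlier results of these data known. All 24 HLA-labelled libraries, including those that went with their labels, are described at the end. Macrophage markers were high in every letter-labelled library (Csf1r at 698 to 1187 CPM, Cd68 at 1275 to 2165 CPM). Of 19 markers of fibroblasts, osteoblasts, T and B cells, epithelium and endothelium, 17 stayed under 1 CPM in each of these libraries, and the exceptions were Pdgfra (up to 1.84 CPM) and Runx2 (0.949 to 5.09 CPM). Runx2 was at 2.24 to 5.09 CPM without IFN-γ and at 0.949 to 4.31 CPM with it, and its part in any result was not tested. The study's legends count 6 biological replicates but fewer independent experiments, while the labels tie no library to an experiment or a culture. Whether the 3 letter-labelled libraries of a group came from separate experiments is not given. The p-values measure the spread between these libraries only.

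All 10 are protein-coding genes. In GRCm38 (GENCODE M21) Ctsk lies at chr3:95499256-95509362, Acp5 at chr9:22126727-22135711, Atp6v0d2 at chr4:19876841-19922605 and Dcstamp at chr15:39745930-39760938. Mmp9 (chr2:164940780-164955850) and Ocstamp (chr2:165393760-165400405) share a chromosome. The counts cover each gene's exons as a whole. Members differed widely in level. Per kilobase of merged exons, the PBS libraries gave means of 69.1 CPM for Atp6v0d2, 62.7 for Ctsk and 38.3 for Acp5. The signalling genes were in the middle, with 8.42 CPM per kilobase for Nfatc1 and 7.27 for Tnfrsf11a, beside 5.83 for Dcstamp and 3.91 for Mmp9. The lowest were Oscar at 1.30, Ocstamp at 0.49 and Itgb3 at 0.10 CPM per kilobase. Itgb3 had 11 to 14 reads in a PBS library and 6 to 25 in any letter-labelled library, so its folds are the least precise. With IFN-γ alone the order began with Atp6v0d2 at 23.9 CPM per kilobase, followed by Ctsk at 8.96 and Acp5 at 7.87. The ligand gene Tnfsf11, which encodes RANKL, had 0 counts in all 48 libraries, which allows at most 0.213 CPM in the shallowest (3 counts of its total, for counting error only). Tnfrsf11b, the gene of its decoy receptor, reached 1 count in 1 library.

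**Figure D1:**
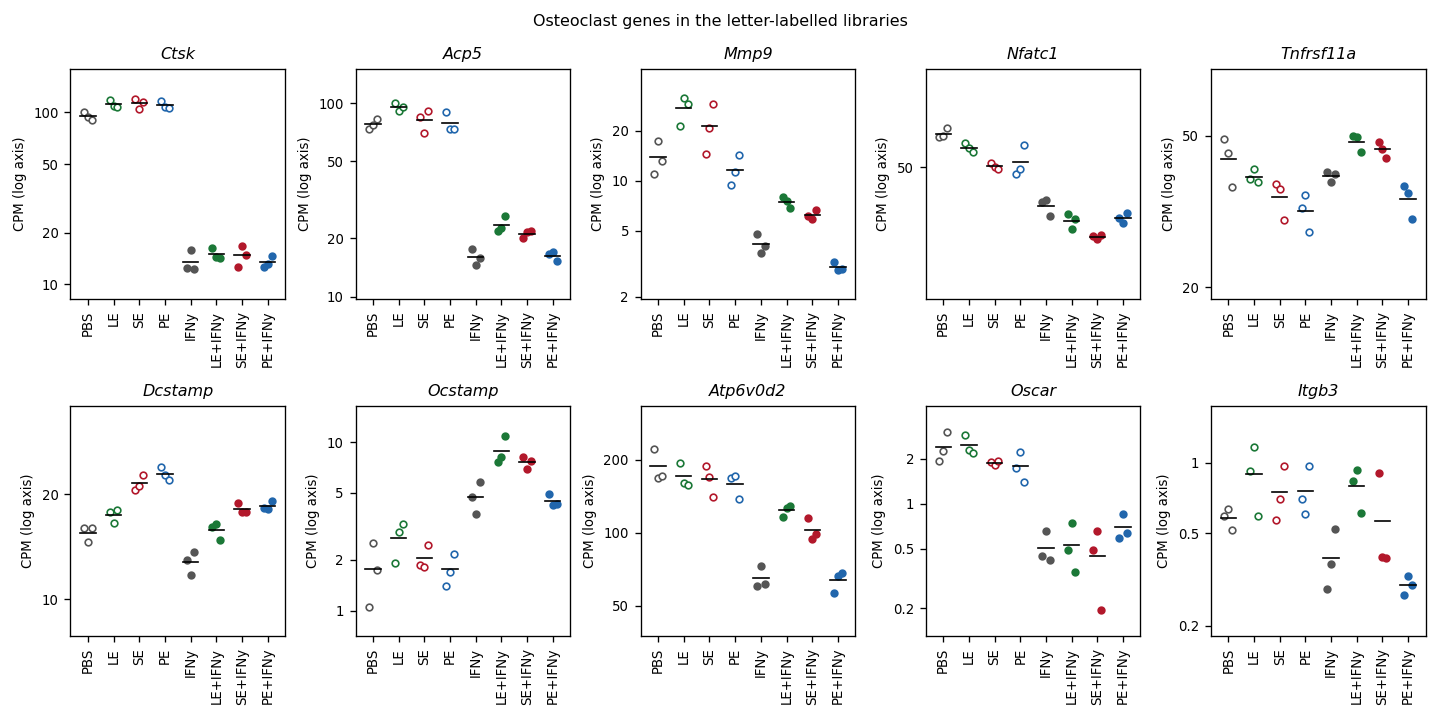
CPM of each of the 10 genes (log axis, a separate range per panel) in the 24 letter-labelled libraries, by group. Each point is 1 library, open without and filled with IFN-γ, and each black line is the mean of 3. Ctsk falls from 90.3 to 119 CPM in the 12 libraries without IFN-γ to 12.4 to 16.8 CPM in the 12 with it, Ocstamp rises, and Atp6v0d2 with IFN-γ is higher with LE or SE than without peptide.

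The first comparison, IFNy against PBS, shows how IFN-γ alone moved these genes. The enzyme genes Ctsk, Acp5 and Mmp9, with Atp6v0d2, Oscar and Nfatc1 fell and Ocstamp rose. A gene was called when edgeR's quasi-likelihood test, with Benjamini-Hochberg adjustment over all genes tested, gave an adjusted p under 0.05 and the fold exceeded 1.5. By that rule 7 of the 10 members were called, 6 lower and 1 higher, where 18.1% of the 12242 genes tested were called (8.28% lower and 9.79% higher). The median log2 fold change of the members was -1.10, against -0.01 over all genes tested. In bulk RNA, fewer cells that express a gene and less RNA of it per cell cannot be told apart.

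Tnfrsf11a, the receptor, was at 48.9, 45.0 and 36.6 CPM in PBS and at 40.1, 37.7 and 39.6 CPM in IFNy. The groups overlapped, and the log2 fold change of -0.14 (95% interval -0.36 to 0.09) did not pass (edgeR adjusted p = 0.32). Nfatc1, the transcription factor, was at 61.5, 62.1 and 65.1 CPM in PBS and lower in every IFNy library, at 39.6, 40.2 and 35.9 CPM. Its log2 fold change was -0.69 ± 0.08 (SE, n = 3 per group, edgeR adjusted p = 3.76e-05), the smallest fold among the 7 called genes.

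Ctsk and Acp5 had the largest folds. Ctsk, which encodes the collagen-cleaving protease of the osteoclast, was at 100.0, 94.1 and 90.3 CPM in PBS and at 12.4, 15.9 and 12.4 CPM in IFNy, 6.91-fold lower (log2 -2.79 ± 0.11, edgeR adjusted p = 3.28e-09). Acp5 was at 73.6, 76.8 and 82.7 CPM in PBS and at 17.6, 14.6 and 15.8 CPM in IFNy, 4.81-fold lower (log2 -2.27 ± 0.09, edgeR adjusted p = 7.77e-09). For both enzymes the highest IFNy library lay far below the lowest PBS library. Mmp9 was at 11.0, 17.3 and 13.2 CPM in PBS and at 4.75, 3.68 and 4.06 CPM in IFNy, 3.28-fold lower (log2 -1.72 ± 0.19, edgeR adjusted p = 3.13e-05). Oscar, the collagen-binding co-receptor, had 46, 50 and 64 reads in PBS and 11, 16 and 9 in IFNy. Its groups did not overlap either, at 1.94 to 3.00 against 0.42 to 0.65 CPM, and the log2 fold change was -2.20 ± 0.32 (edgeR adjusted p = 0.000223).

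The fusion genes did not move together. Atp6v0d2, a proton pump subunit also needed for fusion of precursors, was at 222, 169 and 172 CPM in PBS and at 60.4, 73.1 and 61.3 CPM in IFNy, 2.85-fold lower (log2 -1.51 ± 0.11, edgeR adjusted p = 1.03e-06). Ocstamp went the other way, from 1.06, 2.54 and 1.74 CPM in PBS to 4.71, 3.76 and 5.80 CPM in IFNy. It was 2.71-fold higher with no overlap of the groups (log2 1.44 ± 0.30, edgeR adjusted p = 0.0027). Dcstamp, whose protein works in the same step of fusion, was at 16.0, 14.6 and 16.0 CPM in PBS and at 13.0, 11.7 and 13.7 CPM in IFNy. It was lower in every IFNy library, but the log2 fold change of -0.27 ± 0.11 did not pass (edgeR adjusted p = 0.0824). Itgb3 (log2 -0.56 ± 0.40, edgeR adjusted p = 0.294) had 11 to 14 reads in PBS and 7 to 11 in IFNy, and its 95% interval ran from -1.44 to 0.32.

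Of the genes that fell most with IFN-γ, Ctsk, Acp5 and Oscar have a promoter window in RefSeq that lies outside annotated exons, and the 250 bases before the start of each are shown because these 3 genes moved in the same direction. The windows are from build GRCm38.p6, at chr3:95498960-95499209 on the plus strand for Ctsk, chr9:22135747-22135996 on the minus strand for the most upstream start of Acp5, and chr7:3616158-3616407 on the minus strand for Oscar. Capitals mark matches, on either strand, to GGAAA (the core bound by NFAT factors) or TCANGTG (an E-box pattern broad enough to take in sites of MITF). N stands for any base, so a match need not be a site of MITF, and whether MITF binds a given form was not tested. In all, 4 of the 10 members had a window in that table.
Ctsk: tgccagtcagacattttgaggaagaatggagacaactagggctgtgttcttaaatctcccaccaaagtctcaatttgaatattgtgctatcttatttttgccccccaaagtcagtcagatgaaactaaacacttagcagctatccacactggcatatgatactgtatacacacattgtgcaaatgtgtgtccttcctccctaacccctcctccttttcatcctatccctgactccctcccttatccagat
Acp5: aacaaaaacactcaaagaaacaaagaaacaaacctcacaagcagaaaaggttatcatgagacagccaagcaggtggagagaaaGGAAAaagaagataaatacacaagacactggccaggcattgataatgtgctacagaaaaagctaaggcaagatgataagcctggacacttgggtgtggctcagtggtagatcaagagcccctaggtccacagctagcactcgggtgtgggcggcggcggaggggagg
Oscar: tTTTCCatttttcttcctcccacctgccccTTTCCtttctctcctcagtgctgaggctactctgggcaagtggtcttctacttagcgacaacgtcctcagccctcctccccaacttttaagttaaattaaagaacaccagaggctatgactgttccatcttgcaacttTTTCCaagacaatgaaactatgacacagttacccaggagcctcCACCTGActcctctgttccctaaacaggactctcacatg
The Oscar window held 3 GGAAA matches and 1 TCANGTG match, the Acp5 window shown 1 GGAAA match and the Ctsk window no match. Acp5 also had windows at other starts, which are not shown. The one at chr9:22131866-22132115 held 1 GGAAA match. The one at chr9:22130599-22130848, which overlaps an annotated exon, held 2 GGAAA matches and 1 TCANGTG match. None of the windows of these 3 genes held TGANTCA (AP-1). Among 32851 windows of the same length, 55.6% held GGAAA, 12.2% TCANGTG and 6.75% TGANTCA. A match is a description of these letters only.

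The same IFN-γ contrast was made in peptide-treated cells (Model B, peptide with IFN-γ against that peptide alone). Ctsk, Acp5, Mmp9, Nfatc1 and Oscar fell and Ocstamp rose with each of the 3 peptides, as they did without peptide. In LE cells 6 members were called (5 lower, 1 higher, background 35.1%, or 15.9% lower and 19.1% higher), in SE cells 7 (6 lower, 1 higher, background 26.3%, or 11.3% lower and 15.1% higher) and in PE cells 8 (7 lower, 1 higher, background 21.0%, or 8.82% lower and 12.1% higher). With backgrounds this high a call alone says little, and the sizes are given.

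Ctsk was at 118, 108 and 107 CPM in LE and at 16.2, 14.4 and 14.2 CPM in LE+IFNy, a log2 fold change of -2.92 ± 0.09. With SE it went from 119, 105 and 115 to 12.6, 16.8 and 14.8 CPM (log2 -2.98 ± 0.09). With PE it went from 116, 107 and 106 to 12.7, 13.1 and 14.6 CPM (log2 -3.07 ± 0.09). The order of the 8 group means ran from SE (113 ± 7.33 CPM, SD, n = 3), LE (111 ± 5.96), PE (109 ± 5.26) and PBS (94.8 ± 4.89) down to LE+IFNy (14.9 ± 1.14), SE+IFNy (14.7 ± 2.10), IFNy (13.5 ± 2.01) and PE+IFNy (13.5 ± 1.01), and neighbours in this order overlapped except PE and PBS, and PBS and LE+IFNy. With LE, SE and PE the log2 fold changes of Acp5 were -2.05, -1.99 and -2.33, those of Mmp9 -1.89, -1.82 and -1.98, and those of Oscar -2.21, -2.13 and -1.40. Nfatc1 had -0.74, -0.73 and -0.60. Its PE call was lost without replicate 3, when the log2 fold change was -0.53.

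Ocstamp was at 1.93, 2.94 and 3.27 CPM in LE and at 7.61, 8.13 and 10.96 CPM in LE+IFNy (log2 1.70 ± 0.20). SE gave 1.88, 1.81 and 2.46 against 8.15, 6.96 and 7.80 CPM (log2 1.85 ± 0.21), and PE gave 1.40, 1.69 and 2.18 against 4.93, 4.23 and 4.28 CPM (log2 1.32 ± 0.22). In each pair all IFN-γ libraries lay above all others. Atp6v0d2 differed in size by peptide: its log2 fold change was -0.48 ± 0.10 with LE, not called because the fold was 1.40, -0.74 ± 0.10 with SE and -1.37 ± 0.11 with PE. Tnfrsf11a was higher with IFN-γ in LE cells (log2 0.28, edgeR adjusted p = 0.00538) and SE cells (log2 0.37, edgeR adjusted p = 0.000735), both under the fold threshold. Itgb3 was called in PE cells (log2 -1.35 ± 0.43, edgeR adjusted p = 0.0124, from 14 to 16 reads to 6 to 8), and that call was lost without replicate 1 (adjusted p = 0.0653) or without replicate 3 (0.0834).

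**Figure D2:**
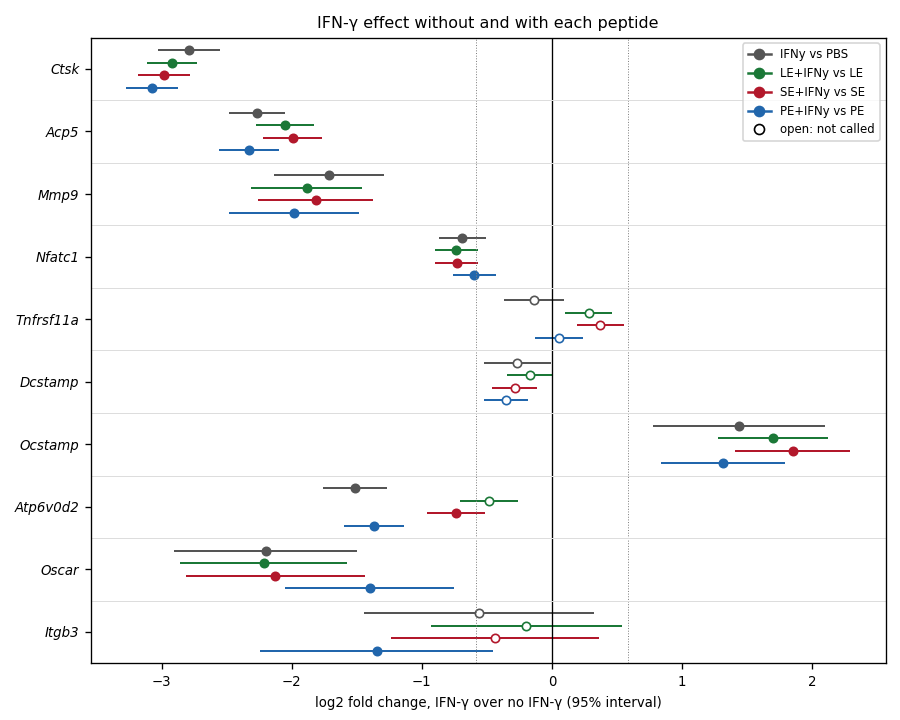
Log2 fold change of IFN-γ over no IFN-γ for the 10 genes, without peptide (grey) and with LE (green), SE (red) or PE (blue), n = 3 per group. Bars are 95% intervals from edgeR, filled points are called, and dotted lines mark a fold of 1.5. The 4 values of Ctsk lie between -2.79 and -3.07, while those of Atp6v0d2 run from -1.51 without peptide to -0.48 with LE.

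Whether a peptide changed the size of the IFN-γ effect was tested directly by an interaction term over the 8 groups, the difference between the IFN-γ effect with and without peptide. Atp6v0d2 was the member called, for LE and for SE. The difference was 1.03 ± 0.16 on the log2 scale for LE (edgeR adjusted p = 2.4e-05) and 0.78 ± 0.16 for SE (0.00113), so the fall with IFN-γ was smaller with either peptide. For PE it was 0.14 ± 0.16 (95% interval -0.19 to 0.47, edgeR adjusted p = 0.806). The background of called genes was 18.9% with LE (11.3% higher), 7.96% with SE (5.08% higher) and 0.0% with PE, where no gene passed although 1073 had an unadjusted p under 0.05 in edgeR and DESeq2 also called 0. Tnfrsf11a had interaction terms of 0.42 ± 0.13 for LE (edgeR adjusted p = 0.0128) and 0.51 ± 0.13 for SE (0.00645), both under a fold of 1.5, and both were past it without replicate 3. Ctsk had terms from -0.29 to -0.13 and Ocstamp from -0.13 to 0.42 over the 3 peptides, none of which passed.

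Model A asks what a peptide added to IFN-γ, each against IFNy alone. With LE, Atp6v0d2, Ocstamp, Mmp9 and Itgb3 rose, with SE the first 3 of these rose, and with PE no member was called. That is 4 of 10 members for LE (background 15.5%, or 9.58% higher), 3 of 10 for SE (background 7.39%, or 5.01% higher) and 0 for PE (background 0.629%), by edgeR. For PE, 3 members and 28.1% of all genes had an unadjusted p under 0.05, and DESeq2 also called none of the members. The members' median log2 fold changes were 0.45, 0.48 and -0.03, beside -0.01, -0.0061 and -0.0042 over all genes tested. The 3 comparisons share the same 3 IFNy libraries.

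Atp6v0d2 was at 60.4, 73.1 and 61.3 CPM in IFNy. In LE+IFNy it was at 117, 126 and 129 CPM, 1.93-fold higher (log2 0.95 ± 0.09, edgeR adjusted p = 1.37e-07). In SE+IFNy it was at 115, 94.4 and 98.6 CPM, 1.61-fold higher (log2 0.69 ± 0.09, edgeR adjusted p = 1.3e-05). Every LE+IFNy and SE+IFNy library lay above every IFNy library. In PE+IFNy it was at 56.2, 66.3 and 68.6 CPM, a log2 fold change of 0.00 (95% interval -0.19 to 0.19). Over the 8 groups its means ran from PBS (188 ± 29.8 CPM, SD, n = 3) through LE (171 ± 20.7), SE (166 ± 24.03) and PE (159 ± 18.3), which overlapped, to LE+IFNy (124 ± 6.64), SE+IFNy (103 ± 10.8), IFNy (65.0 ± 7.06) and PE+IFNy (63.7 ± 6.56), the last pair of which overlapped. Without replicate 1 the SE call was lost, with a log2 fold change of 0.54.

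Ocstamp, at 4.71, 3.76 and 5.80 CPM in IFNy, rose to 7.61, 8.13 and 10.96 CPM with LE (log2 0.92 ± 0.16, edgeR adjusted p = 0.000158) and to 8.15, 6.96 and 7.80 CPM with SE (log2 0.72 ± 0.17, edgeR adjusted p = 0.0029). Neither group overlapped IFNy. The SE call rested on replicate 1, without which the adjusted p was 0.0502. Mmp9, at 4.75, 3.68 and 4.06 CPM in IFNy, rose to 7.99, 7.54 and 6.86 CPM with LE (log2 0.86 ± 0.13, edgeR adjusted p = 2.71e-05) and to 6.10, 5.87 and 6.66 CPM with SE (log2 0.60 ± 0.13, edgeR adjusted p = 0.00165). The SE fold was 1.52, just past the threshold, and fell under it without replicate 2 (log2 0.56) or replicate 3 (log2 0.55). With all 8 groups in 1 fit the SE value did not pass either (log2 0.61, edgeR adjusted p = 0.06). With PE, Mmp9 was at 3.25, 2.91 and 2.96 CPM, below every IFNy library, but its log2 fold change of -0.43 ± 0.14 did not pass (edgeR adjusted p = 0.0625).

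Itgb3 had 7, 9 and 11 reads in IFNy and 22, 25 and 14 in LE+IFNy (log2 1.05 ± 0.38, edgeR adjusted p = 0.0295). It is the least secure of the LE calls, since the adjusted p was 0.156 without replicate 1, 0.182 without replicate 2 and 0.0709 with DESeq2. Acp5 was at 21.8, 22.7 and 26.1 CPM in LE+IFNy, above the 14.6 to 17.6 CPM of IFNy, and its fold of 1.49 lay just under the threshold (edgeR adjusted p = 4.04e-05). It was called without replicate 1. With SE it was at 20.2, 21.5 and 21.9 CPM (log2 0.43, edgeR adjusted p = 0.00119). Tnfrsf11a was at 49.9, 49.5 and 45.2 CPM with LE and at 48.2, 46.1 and 43.7 CPM with SE, above the 37.7 to 40.1 CPM of IFNy, and passed the p threshold but not the fold (log2 0.32 and 0.26).

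Dcstamp was the member that differed from IFNy with all 3 peptides by the p threshold alone. It was at 16.1, 16.5 and 14.8 CPM with LE (log2 0.32), at 18.9, 17.8 and 17.8 CPM with SE (log2 0.53) and at 18.3, 18.2 and 19.1 CPM with PE (log2 0.57), against 11.7 to 13.7 CPM in IFNy. The edgeR adjusted p was 0.0037, 7.98e-05 and 0.00234, and the SE and PE folds of 1.45 and 1.48 passed 1.5 without replicate 3. Nfatc1 was at 31.4, 30.7 and 31.6 CPM with SE, below the 35.9 to 40.2 CPM of IFNy (log2 -0.28, edgeR adjusted p = 0.00329), with log2 fold changes of -0.13 for LE and -0.09 for PE that did not pass. Ctsk (log2 0.15, 0.15 and 0.02) and Oscar (0.08, -0.19 and 0.47) did not pass with any peptide.

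**Figure D3:**
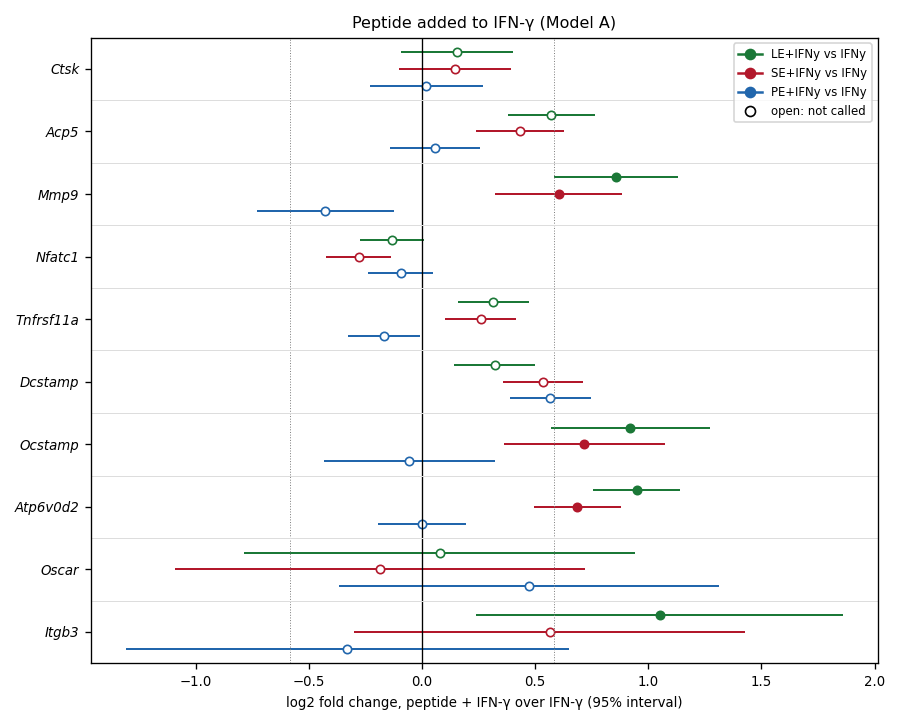
Log2 fold change of peptide with IFN-γ over IFN-γ alone for the 10 genes, with LE (green), SE (red) or PE (blue), n = 3 per group. Bars are 95% intervals from edgeR, filled points are called, and dotted lines mark a fold of 1.5. Mmp9, Ocstamp and Atp6v0d2 lie past 0.58 for LE and SE, while the PE values of these genes lie between -0.43 and 0.00.

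Differences among the peptides were tested on top of IFN-γ, in 3 pairs at 1 dose and time. LE+IFNy exceeded PE+IFNy for 4 of 10 members, Mmp9 (log2 1.28 ± 0.13), Ocstamp (0.98 ± 0.17), Atp6v0d2 (0.95 ± 0.09) and Itgb3 (1.38 ± 0.40, edgeR adjusted p = 0.00661), with a background of 21.6%, or 12.7% higher. SE+IFNy exceeded PE+IFNy for 3 of 10, Mmp9 (log2 1.03 ± 0.14), Ocstamp (0.77 ± 0.17) and Atp6v0d2 (0.69 ± 0.09), with a background of 7.59%, or 5.25% higher. Without replicate 1 the last of these had a log2 fold change of 0.51 and was not called. Between LE+IFNy and SE+IFNy no member was called by edgeR or DESeq2 (background 4.93%), and 3 had an unadjusted p under 0.05, as 45.2% of all genes did. Atp6v0d2 was higher with LE at an edgeR adjusted p of 0.0271, with an interval of 0.08 to 0.45 on the log2 scale. Dcstamp was lower with LE (log2 -0.21, edgeR adjusted p = 0.047). The intervals of the LE minus SE difference were -0.01 to 0.51 for Mmp9 and -0.12 to 0.53 for Ocstamp.

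Each peptide given without IFN-γ was set against PBS. Dcstamp was the member called, with PE. By edgeR, 0 of 10 members were called with LE (background 0.0242%), 0 with SE (background 1.92%) and 1 with PE (background 3.13%, or 0.652% higher), while 4, 5 and 4 members had an unadjusted p under 0.05, as 15.7%, 32.0% and 35.5% of all genes tested did. DESeq2 gave the same counts of 0, 0 and 1. Dcstamp was at 16.0, 14.6 and 16.0 CPM in PBS and at 23.96, 22.8 and 21.9 CPM in PE (log2 0.65 ± 0.09, edgeR adjusted p = 0.00501). The adjusted p was 0.185 without replicate 1. SE libraries were at 20.6, 21.2 and 22.7 CPM (log2 0.54, edgeR adjusted p = 0.00667, fold 1.46), and LE libraries at 17.8, 16.6 and 18.1 CPM (log2 0.22, edgeR adjusted p = 0.285). Every peptide library lay above every PBS library.

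Mmp9 was the member with the largest fold in LE cells, at 21.2, 31.3 and 28.9 CPM against 11.0, 17.3 and 13.2 CPM in PBS. The groups did not overlap, and the log2 fold change was 1.02 ± 0.24 with an unadjusted p of 0.000832, but the edgeR adjusted p was 0.201. In SE cells Mmp9 was at 14.5, 20.6 and 28.8 CPM, overlapping PBS (log2 0.70 ± 0.24, edgeR adjusted p = 0.0688), and in PE cells at 9.45, 11.2 and 14.3 CPM (log2 -0.17). Its LE and SE calls depended on the setting: it was called in both with the replicate number as a block, without the filter on low counts, or with all 8 groups in 1 fit. Without the filter the log2 values were nearly unchanged (1.01 and 0.70), while the edgeR adjusted p was 2.25e-11 with LE and 9.69e-06 with SE. Why it moved that far was not tested. Ctsk was slightly higher with each peptide (log2 0.28, 0.33 and 0.29), past the p threshold with SE (edgeR adjusted p = 0.0118) and PE (0.0129) and not with LE (0.201). Tnfrsf11a was at 32.2, 34.8 and 27.9 CPM in PE, below every PBS library (log2 -0.37, edgeR adjusted p = 0.0269).

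Other genes of the pathway were taken from 4 lists of 66 genes in all, of which 61 were tested for IFNy against PBS, and 8 were called higher and 14 lower, beside 9.79% and 8.28% of all genes tested. Those shares are the background of each list count with IFN-γ alone. Among ligands, receptors and signalling genes 3 of 16 rose and 3 fell. Csf1, a survival factor of macrophages and osteoclast precursors, rose from 5.36, 6.80 and 7.22 to 63.9, 60.7 and 65.0 CPM (log2 3.31), and Cd47 (log2 0.65) and Cd44 (log2 0.62) rose less. Trem2, a receptor that signals through DAP12, fell from 458, 479 and 455 to 159, 177 and 170 CPM (log2 -1.44), and the genes of its adaptor, Tyrobp (log2 -0.60), and of the kinase Syk (log2 -0.97) fell too. Of 15 transcription factor genes 1 rose, Fosl1 (log2 1.35), and 5 fell, led by Jun (-1.50), Fos (-1.08) and Fosl2 (-1.05), which encode AP-1 subunits.

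Of 6 repressors of osteoclast differentiation 3 rose with IFN-γ and none fell. Among them were Id1 (log2 3.17, from 2 to 6 reads in a PBS library to 43 to 47) and Irf8 (0.76). Against the same background, among 24 genes of resorption and fusion 1 rose, Clcn7 (log2 0.69), and 6 fell. Siglec15, a sialic acid receptor of osteoclasts, fell from 21 to 33 reads to 3 to 11, and Slc9b2, a sodium/proton exchanger, from 51 to 61 reads to 0 to 6. Cd9, a tetraspanin, fell from 393, 315 and 335 to 106, 128 and 108 CPM (log2 -1.59).

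In Model A, 10 of 61 genes rose and none fell with LE, 8 rose and none fell with SE (9.58% and 5.01% of all genes tested were higher), and with PE (0.629% of all genes called) 1 rose, the repressor gene Id1 (log2 0.72, edgeR adjusted p = 0.0341). The genes that rose with LE were 2 of signalling, 2 transcription factors, 2 repressors and 4 of resorption and fusion. With SE they were 2, 3, 1 and 2 in the same order. Id2, a helix-loop-helix factor gene, rose from 10.2, 9.04 and 10.6 CPM in IFNy to 44.4, 46.6 and 46.8 CPM with LE (log2 2.23) and to 39.6, 31.2 and 33.7 CPM with SE (log2 1.84). Mmp14, which encodes a membrane-bound matrix protease, had 2 to 6 reads in IFNy, 36 to 44 with LE (log2 3.13) and 10 to 18 with SE (log2 1.78). Car2, the carbonic anhydrase gene whose product supplies protons for resorption, rose from 63.3, 56.8 and 66.2 to 144, 139 and 173 CPM with LE (log2 1.31) and was under the fold threshold with SE (log2 0.38). Mmp14 (log2 1.35) and Car2 (0.93) were the 2 of 61 listed genes called between LE+IFNy and SE+IFNy, where 4.93% of all genes tested were called. With peptide alone the lists gave 0 calls for LE and PE and 1 of 62 for SE, Fosl1 (log2 0.82, edgeR adjusted p = 0.00432). Of all genes tested, 0.0242%, 3.13% and 1.92% were called with LE, PE and SE. An unadjusted p under 0.05 was found for 13, 24 and 25 of 62 genes in the same order, as for 15.7%, 35.5% and 32.0% of all genes.

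Over the 24 letter-labelled libraries each member was matched to the genes whose log2 CPM followed it most closely, among 8619 genes with a mean of at least 10 CPM. These correlations rest on groups that share libraries and IFN-γ treatment and are given as a description. Ctsk was nearest to Cux1 and Trem2 (r = 0.99 for both), and Acp5 to Gpr183 and Cux1 (r = 0.99 for both). Atp6v0d2 was nearest to the tetraspanin genes Tspan10 and Tspan5 (r = 0.97 for both), and Ocstamp to Ppard (0.97) and Spg7 (0.96). Nfatc1 was nearest to Glyr1 and Srebf2 (0.98 for both), Mmp9 to Myo1d (0.94) and Marcksl1 (0.93), and Oscar to Ptprs and Ranbp10 (0.94 for both). The closest matches were weaker for Tnfrsf11a (Ccnt2, 0.91), Dcstamp (Fam195a, 0.90) and Itgb3 (Actn4, 0.83).

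In the HLA-labelled libraries the levels of Ctsk, Ocstamp and Atp6v0d2 did not sort by the IFN-γ labels. Mmp9 and Acp5 were lower in each group labelled with IFNy than in the group with the same peptide label without it, with no overlap. For Mmp9, PBS was at 8.34 to 13.3 CPM and IFNy at 2.76 to 4.02 CPM, and for Acp5 at 19.7 to 29.5 and 13.9 to 19.1 CPM. Ctsk did the same within the LE, SE and PE pairs. In each of these pairs, PBS with IFNy included, the IFN-γ target scores of both groups lay on the same side of 4. The scores were 1.16 to 1.32 in PBS and 0.979 to 1.11 in IFNy. Ctsk was at 64.3, 63.9 and 43.9 CPM in PBS and at 54.2, 49.1 and 46.5 CPM in the libraries labelled IFNy, which overlapped. The libraries labelled LE were at 14.1, 18.8 and 10.4 CPM and those labelled PE at 15.2, 14.3 and 13.1 CPM, and their IFN-γ target scores were 6.40 to 6.44 and 6.24 to 6.40. Those labelled SE+IFNy were at 38.6, 36.4 and 33.4 CPM, with scores of 0.949 to 1.35. Those labelled LE+IFNy and PE+IFNy were at 7.23 to 9.16 and at 7.31 to 7.63 CPM, with scores of 5.58 to 5.69 and 5.86 to 5.95. Ocstamp was at 13.8, 13.6 and 11.5 CPM in the libraries labelled LE and at 1.22, 1.34 and 0.43 CPM in PBS. Atp6v0d2 was at 325, 269 and 262 CPM in those labelled IFNy, and at 282, 278 and 219 CPM in PBS. With these libraries added by label, members called for IFNy against PBS went from 7 to 1, for LE+IFNy against IFNy from 4 to 0, and for SE+IFNy against IFNy from 3 to 0. Calls over all genes fell too, from 2213 to 1, from 1972 to 110 and from 940 to 0 in the same order. The 1 gene still called for IFNy against PBS was Mmp9. In the deposited table each set of 3 HLA-labelled columns follows letter-labelled columns of a group other than its labelled one (8 of 8 sets), and in 8 of 8 sets its scores lay on the same side of 4 as theirs. Column order names no sample, so no library was moved, and which label is right for which library was not determined.

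**Figure D4:**
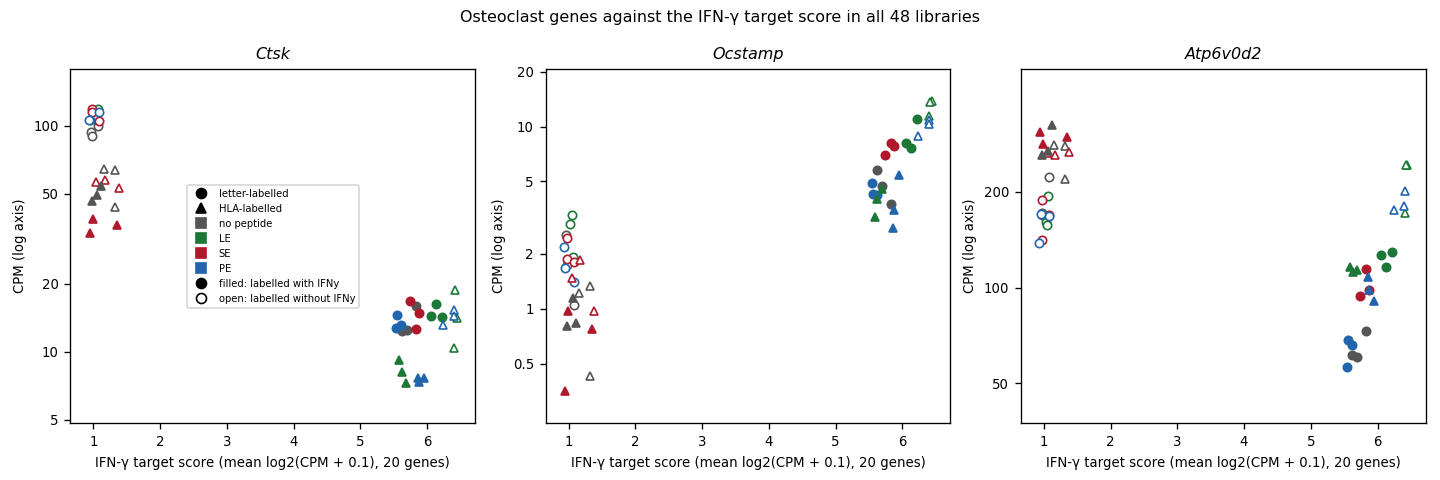
CPM of Ctsk, Ocstamp and Atp6v0d2 (log axis) against the IFN-γ target score, the mean log2(CPM + 0.1) of 20 genes, in all 48 libraries. Circles are letter-labelled and triangles HLA-labelled, color gives the peptide, and filled points carry IFNy in the label. Filled circles lie at the right and open circles at the left, while among the triangles 6 open points lie at the right and 6 filled points at the left.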

How the data were processed

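Messenger RNA of RAW264.7 cells was sequenced in 48 libraries. Per the study's methods, 200 ng of total RNA gave stranded TruSeq libraries that were read as 100-base single ends, and the authors deposited raw counts per gene of uniquely aligned reads from featureCounts (Rsubread 1.5.0p3, GENCODE M12, GRCm38). Whether counting used strand, and the aligner, are not given in the sources used here. Exons of Acp5 overlap 6530413G14Rik on the opposite strand, and no other member overlaps a gene in GENCODE M21. Of 49568 gene names, 26 had been turned into dates.

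Groups come from the labels. CPM is a count scaled to a library total of 1000000, with no further scaling. Tests used edgeR 4.0.16 in R 4.3.3 (quasi-likelihood F test, TMM scaling, filterByExpr) on the letter-labelled libraries, separately for IFNy and PBS, the IFN-γ groups (Model A), the peptide groups with and without IFN-γ (Model B), the groups without IFN-γ, and all 8 groups (interaction). Values after ± are standard errors of log2 fold changes unless marked SD. All 10 members passed the filter in each of the 16 comparisons. Adjusted p-values are Benjamini-Hochberg values from edgeR over all genes tested, and a call needed an adjusted p under 0.05 and a fold over 1.5. The scripts were tested on simulated data. All members are named, and of the pathway lists up to 3 called genes per direction, except 1 that is not reported here. For likeness, the pair of genes with the highest Pearson r was taken. The members and lists were chosen with earlier results of these data known. The study pooled 6 libraries per group, which is given here as an alternative, beside DESeq2 1.42.0, its size factors, no filter, a replicate block, all groups in 1 fit and each replicate left out.

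Whether equal replicate numbers pair the libraries was checked by the correlation of deviations from the group means over 8619 genes. Of 13 group pairs compared, 3 had r over 0.1 for every number (0.164 to 0.322): PBS with IFNy, IFNy with LE+IFNy, and LE+IFNy with SE+IFNy. Among all 28 group pairs 6 did. The others were LE with SE, LE with PE and SE with PE (0.240 to 0.523), which share a fit with PBS. The labels give no source for a pairing.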

Additional observations from a re-analysis of the deposited data

Results flagged for a closer look

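The IFN-γ effect on Atp6v0d2 differed between cells with and without a peptide by the interaction test: by 1.03 on the log2 scale for LE and by 0.78 for SE. The HLA-labelled libraries, which entered the alternatives and not the main comparisons, held a signal for Ocstamp above the PBS libraries of that set. The lowest library labelled LE was at 11.5 CPM and the lowest labelled PE at 8.86 CPM, where the highest PBS library was at 1.34 CPM. These libraries carry no IFNy in the label, and their IFN-γ target scores were 6.24 to 6.44.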

How the results depend on the processing

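Of the 45 member calls, 37 were kept whichever single replicate number was left out. Counts of members called over these omissions ranged from 1 to 3 for SE+IFNy against IFNy (1 without replicate 1), 3 to 4 for LE+IFNy against IFNy, 0 to 1 for PE+IFNy against IFNy and for PE against PBS, 6 to 8 for PE+IFNy against PE, 2 to 3 for SE+IFNy against PE+IFNy, and 1 to 2 for each of the LE and SE interactions. DESeq2 size factors changed none of the member calls and DESeq2 changed 1. With the replicate number as a block, LE against PBS and SE against PBS went from 0 to 1, which was Mmp9 (adjusted p 0.00938 and 0.00521, edgeR), and no other member call changed. By the check above, r for equal numbers was 0.50, 0.06 and 0.23 between PBS and LE, and 0.53, -0.26 and 0.54 between PBS and SE. Between LE and SE it was 0.46, 0.24 and 0.41, so whether the block is warranted was not settled. Leaving out the filter, or fitting all 8 groups at once, gave the same step from 0 to 1 in both comparisons. Fitting all 8 groups also ended the call of Mmp9 for SE+IFNy against IFNy (edgeR adjusted p 0.06). Over all genes, the backgrounds of the small comparisons moved too. Calls for PE+IFNy against IFNy went from 80 to 152 without the filter, 31 with DESeq2, 24 with all groups in 1 fit and 4 to 250 with a replicate left out. Calls for LE against PBS went from 3 to 7 with the block or all groups in 1 fit, to 57 without the filter and to 0 to 1 with a replicate left out. With a replicate left out they were 3 to 419 for SE against PBS (239 in all), 0 to 1021 for PE against PBS (389) and as low as 551 for the SE interaction (1043), and without the filter 61 for the PE interaction (0).

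Adding the HLA-labelled libraries gave 0 to 271 calls over all genes in a comparison without a series term and 0 to 1123 with one. These libraries, of which 12 of 24 go against their labels, changed most counts. With all 6 libraries per group and no series term, members called went from 7 to 1 for IFNy against PBS, from 4 to 0, 3 to 0 and 4 to 0 for LE+IFNy and SE+IFNy against IFNy and LE+IFNy against PE+IFNy, from 3 to 0 for SE+IFNy against PE+IFNy, from 6 to 0, 7 to 0 and 8 to 3 for Model B with LE, SE and PE, and from 1 to 0 for PE against PBS and for the LE and SE interactions. With a series term these were 2 for IFNy against PBS, 2 and 0 in Model A with LE and SE, 1 for LE+IFNy against PE+IFNy, 2 and 5 for Model B with SE and PE, 1 for LE and 2 for PE against PBS, and 0 for both interactions. In the HLA-labelled libraries alone, an alternative chosen after seeing the data, the count was 0 for IFNy against PBS. Model A gave 7 with LE (1 higher, 6 lower), 1 with SE (lower) and 8 with PE (1 higher, 7 lower). In the main fit Model A with LE gave 4 higher and 0 lower. The peptide pairs gave 6 for LE and SE (1 higher, 5 lower), 2 for LE and PE (2 higher) and 6 for SE and PE (5 higher, 1 lower). Model B with SE gave 1 (lower). Against PBS, LE gave 5 (1 higher, 4 lower) and PE gave 4 (1 higher, 3 lower). The LE, SE and PE interactions gave 5 (all lower), 0 and 6 (all lower). Model B with LE and PE, and SE against PBS, were classed as unmoved and are not given. Over all genes, calls in these libraries alone ran from 0 to 4065 (LE against PBS). They were 0 for IFNy against PBS, and 10 and 1890 for Model A with SE and PE. The peptide pairs gave 2236 for LE and SE, 19 for LE and PE and 2051 for SE and PE. Model B with SE gave 21, PE against PBS 3627, and the SE and PE interactions 0 and 2145. All-gene counts for Model A with LE and for the LE interaction were classed as unmoved and are not given. Log2 values that reversed, without and with the series term, were -0.58 and -0.18 for Atp6v0d2 with LE in Model A, -0.021 and -0.54 for Ocstamp in SE+IFNy against PE+IFNy, -0.38 and -0.37 for Ocstamp with LE and -0.54 and -0.54 with PE in Model B, and -0.46 and -0.20 for the LE interaction of Atp6v0d2. With the series term alone, Ctsk (-1.30) and Mmp9 (-0.070) reversed with LE in Model A. The cause was not tested.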
